A study of Mus musculus with 24 samples.

Results

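Cdh5, Pecam1, Esam, Emcn, Cd34, Eng, Ramp2 and Nos3 encode junction, surface and signalling proteins that blood vessel endothelium is known for. They were followed as all probes whose platform annotation named 1 gene only, that gene being one of these 8. Each of the 8 genes had 1 such probe, out of 8973 genes named in this way and 17440 features (named genes plus unnamed probes) in all. Another 3 probes listed Ramp2 together with a second gene and are kept apart. By 8 d, cells with Flk1 on their surface (Flk1+) had more Cdh5, Eng and Cd34 RNA than cells without it (Flk1-), whereas at 84 h and 95 h none of the 8 genes passed the test between the sorts. Over all features, 13.5% were called at 84 h, 2.03% at 95 h and 0.373% at 8 d.

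Endothelial cells line blood vessels and hold together through adherens junctions, built on the cadherin encoded by Cdh5, and through immunoglobulin-type adhesion proteins such as those of Pecam1 and Esam. Their surface also carries sialomucins (Emcn, Cd34), a co-receptor for BMP and TGF-beta ligands (Eng) and the partner protein that turns the calcitonin receptor-like receptor into a receptor for adrenomedullin (Ramp2), and inside the cell Nos3 makes nitric oxide. In differentiating embryonic stem cells, the VEGF receptor Flk1, encoded by Kdr, appears on mesoderm before most of these proteins do, and Flk1+ mesoderm can give rise to endothelium, blood, smooth muscle and heart muscle. Several of the 8 genes are not exclusive to endothelium: Pecam1 is also made by undifferentiated mouse embryonic stem cells and by platelets, and Cd34 and Eng by blood progenitors.

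Embryonic stem cells of the mouse were left to differentiate in clusters called embryoid bodies, and the cells were sorted into Flk1+ and Flk1- fractions at 84 h, 95 h and 8 d. The labels write these groups as Flk+ or Flk- with the time, and each of the 6 groups had 4 samples, 1 per array. On each of the 24 arrays, sample RNA labelled with Cy5 was set against the same Cy3-labelled RNA from whole mouse pups, without any exchange of dyes. No genotype, stem cell line or treatment is given in the labels, nor whether the 4 samples of a group came from separate cultures, so the p-values rest on the variation between these samples, part or all of which may be technical.

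Values are log2 ratios of sample over pup reference after each array's median was set to 0, and a group mean is followed by the SD of its 4 arrays. A value of -3 on this scale means less RNA than in whole pups, not absence, and since each probe has its own reference level, values are compared between groups and never between genes. A difference was called when its adjusted p from limma (moderated test, Benjamini-Hochberg over 17440 features) was under 0.05. The sort itself was checked on Kdr, which was higher in Flk1+ cells by 1.91 at 84 h, 2.93 at 95 h and 1.89 at 8 d (adjusted p of 1.39e-05, 1e-07 and 0.000155). At 84 h Kdr measured 1.80, 0.036, 1.43 and 0.67 in Flk1+ cells, against -0.87, -0.74, -1.004 and -1.08 in Flk1- cells, without overlap between the sorts. Pearson's r between arrays of 1 group lay between 0.925 and 0.958 at 8 d and between 0.590 and 0.966 at the earlier times. Replicates 2 and 4 of Flk1+ at 84 h and replicate 4 of Flk1- at 84 h stood apart from the other arrays of their groups on the first principal component. In Flk1+ their scores were 63.6 and 60.6 against 16.1 and 20.4, so the 4 arrays form 2 pairs, and which pair is typical cannot be told. In Flk1- replicate 4 was at 24.1 and the others at 8.5 to 12.4, a smaller gap. These 3 are called outlying below in this sense only. Replicates 2 and 4 are also the Flk1+ arrays of 84 h with the lowest Kdr, so their removal by itself raises the Kdr mean of that group. With all 3 left out the Kdr difference at 84 h was 2.49 (adjusted p = 5.49e-09), and the Flk1+ group of 84 h then held replicates 1 and 3 only. Of all features, 6.74% were then called between the sorts at 84 h in place of 13.5%. Values with these 3 left out are given beside the results of 84 h that they move. In RNA of sorted bulk cells, fewer cells of a type and less RNA per cell cannot be told apart.

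The promoter table used here, taken from RefSeq on build GRCm38.p6, held 3 of the 8 genes, each as 250 bases before to 50 bases after the start of the gene. These 3 genes, Emcn, Cd34 and Eng, were all higher at 8 d than at 95 h in Flk1+ cells, so their promoters are shown side by side. Emcn is at chr3:137340828-137341127, Cd34 at chr1:194938571-194938870 and Eng at chr2:32646345-32646644, all on the plus strand. Each runs 5′ to 3′, and capitals mark a match, on either strand, to the letters searched here for ETS factor sites (CCGGAAG or CAGGAAG). ETS factors are transcription factors with well known roles in endothelial gene expression.
Emcn: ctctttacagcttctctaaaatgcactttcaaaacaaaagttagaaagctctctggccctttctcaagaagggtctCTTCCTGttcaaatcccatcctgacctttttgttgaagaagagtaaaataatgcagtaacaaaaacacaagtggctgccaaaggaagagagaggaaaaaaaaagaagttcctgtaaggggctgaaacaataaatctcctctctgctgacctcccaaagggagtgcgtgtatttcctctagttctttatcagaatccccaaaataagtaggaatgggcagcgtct
Cd34: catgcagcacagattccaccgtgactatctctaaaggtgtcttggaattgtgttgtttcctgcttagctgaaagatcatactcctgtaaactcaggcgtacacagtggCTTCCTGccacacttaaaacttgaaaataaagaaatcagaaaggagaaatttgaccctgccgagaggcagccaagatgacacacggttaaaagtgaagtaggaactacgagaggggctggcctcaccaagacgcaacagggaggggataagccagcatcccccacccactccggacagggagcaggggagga
Eng: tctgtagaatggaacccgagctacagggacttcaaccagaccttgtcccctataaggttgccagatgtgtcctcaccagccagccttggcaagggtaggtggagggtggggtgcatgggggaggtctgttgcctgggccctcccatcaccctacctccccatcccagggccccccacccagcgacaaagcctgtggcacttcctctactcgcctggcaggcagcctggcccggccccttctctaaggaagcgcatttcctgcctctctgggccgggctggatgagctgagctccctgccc

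Emcn held 1 ETS match at -174 to -168 from the gene's start and Cd34 held 1 at -142 to -136, with the start counted as 0. Eng held no match to these letters in its window. The shorter letters GGAA, which both searched forms contain, also occur unmarked in all 3 windows on 1 strand or the other. Having no match is therefore not the absence of a possible ETS site. Of all 32851 promoters of this length in the table, 20.9% held at least 1 match. The E-box letters CANNTG were present in Emcn and Eng, and in 72.3% of all promoters. None of the 3 windows held the GATA letters AGATAA, the GC box GGGCGG, the SOX letters ACAATGG or ACAAAGG, or the TATA letters TATAAA, which 11.2%, 35.7%, 9.28% and 13.6% of all promoters held. No motif overlap was resolved, and binding was not measured.

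**Figure D1:**
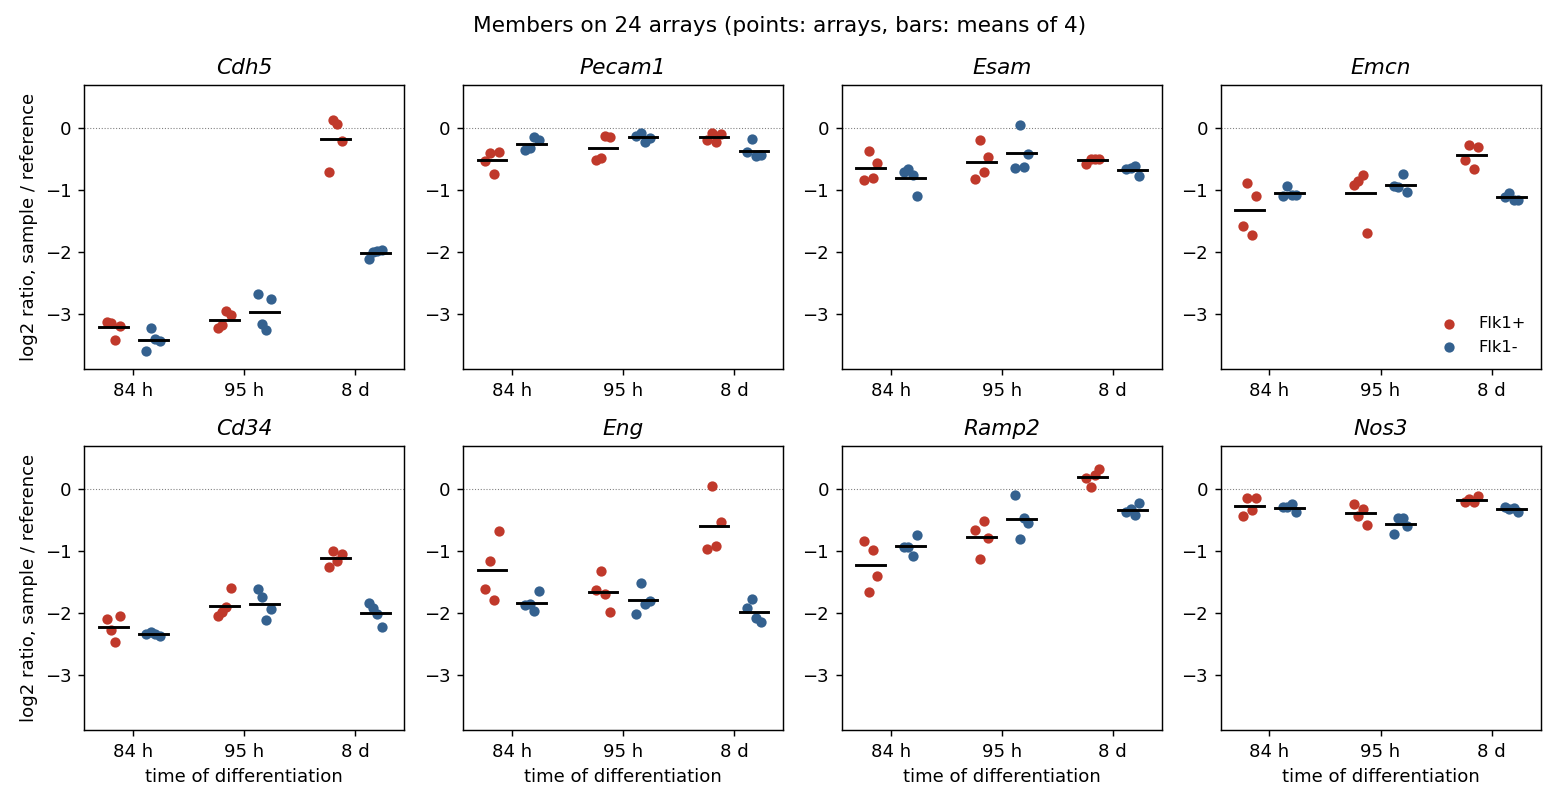
Log2 ratio of sample over whole-pup reference for each of the 8 genes, with 1 point per array, a bar for the mean of 4 arrays, and Flk1+ left of Flk1- at 84 h, 95 h and 8 d. Cdh5 has the widest range, with Flk1+ arrays at 8 d between -0.71 and 0.12, while Pecam1, Esam and Nos3 stay within a narrow band at all times.

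Cdh5 encodes VE-cadherin, the cadherin of endothelial adherens junctions, and it moved further than the other 7 genes. At 8 d its log2 ratios were -0.71, 0.12, 0.074 and -0.21 in Flk1+ cells, against -2.11, -2.01, -1.98 and -1.97 in Flk1- cells. Every Flk1+ array was above every Flk1- array, with replicate 1 the lowest of the Flk1+ arrays. The difference was 1.84 ± 0.15 (SE), a 3.57-fold higher level with a 95% interval of 2.86 to 4.46 (limma adjusted p = 5.83e-07). Only 2 of the 17440 features had a larger difference at 8 d, Kdr and Ctla2b.

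At the earlier times Cdh5 lay far lower and showed no such split. At 84 h it measured -3.14, -3.15, -3.42 and -3.20 in Flk1+ cells, against -3.61, -3.24, -3.41 and -3.44 in Flk1- cells. At 95 h it measured -3.23, -3.19, -2.96 and -3.02 in Flk1+ cells, against -2.68, -3.17, -3.26 and -2.77 in Flk1- cells. The 2 sorts overlapped at both times, with differences of 0.20 (adjusted p = 0.387) at 84 h and -0.13 (adjusted p = 0.929) at 95 h. In order of level, Flk1+ at 8 d was followed by Flk1- at 8 d without overlap, then, again without overlap, by the 4 earlier groups, whose neighbours in the order overlapped.

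Cdh5 rose between 95 h and 8 d in both sorts. It averaged -0.18 ± 0.38 at 8 d against -3.10 ± 0.13 at 95 h in Flk1+ cells, a 7.57-fold difference (6.06 to 9.46, limma adjusted p = 1.32e-11). In Flk1- cells it averaged -2.02 ± 0.065 at 8 d against -2.97 ± 0.29 at 95 h, a 1.94-fold difference (1.55 to 2.42, adjusted p = 0.000116). The rise was larger in Flk1+ cells by 1.97 ± 0.22 (interaction, adjusted p = 3.78e-05).

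Pecam1 encodes CD31, an adhesion protein that binds itself across endothelial contacts. Its 8 d values were -0.19, -0.071, -0.22 and -0.092 in Flk1+ cells, against -0.38, -0.18, -0.45 and -0.43 in Flk1- cells. Replicate 2 of Flk1- lay among the Flk1+ arrays, and the difference of 0.22 ± 0.10 had an adjusted p of 1 (unadjusted 0.0466). At 84 h the sign was opposite, at -0.54, -0.39, -0.73 and -0.39 in Flk1+ cells against -0.35, -0.32, -0.14 and -0.19 in Flk1- cells. Those arrays did not overlap, with a difference of -0.26 ± 0.10 that missed the threshold (adjusted p = 0.0881), and it was -0.36 (adjusted p = 0.089) with the 3 outlying arrays left out. Pecam1 thus covered only 0.37 between its lowest and highest group mean, Flk1+ at 84 h and Flk1+ at 8 d, and every neighbour in its order of levels overlapped.

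Esam encodes an immunoglobulin-type protein of endothelial tight junctions, also found on platelets. The 8 d arrays gave -0.58, -0.50, -0.50 and -0.50 in Flk1+ cells, against -0.66, -0.64, -0.61 and -0.78 in Flk1- cells. All Flk1+ arrays were above all Flk1- arrays, but by little, and the difference of 0.15 ± 0.15 had a 95% interval of -0.16 to 0.47. Its highest group mean, -0.41 ± 0.33, was in Flk1- cells at 95 h, where single arrays ran from -0.65 to 0.054, and all neighbouring groups overlapped. With all arrays weighted equally and only centred, no comparison of Esam passed the test. The change from 95 h to 8 d in Flk1- cells passed under 2 alternatives, at -0.24 with array weights and -0.49 after quantile normalization (adjusted p = 0.0428 and 0.0161).

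Other junction genes were followed through a list of 29, of which 20 were measured. At 8 d, where 0.149% of all features were called higher and 0.224% lower, 0 were higher and 1 was lower in Flk1+ than in Flk1- cells. The lower one was Ocln, which encodes occludin of epithelial and endothelial tight junctions (-0.73 ± 0.13, limma adjusted p = 0.0106). The median difference of the list at 8 d was 0.0046, against 0.0067 over all features. Ocln was lower in Flk1+ cells at 84 h (-1.22) and 95 h (-0.86) as well (adjusted p = 3.89e-06 and 0.000512). At 84 h 0 of the 20 were higher and 4 were lower, where 8.18% of all features were called lower. The others were Jam2 (-1.18), Afdn (-0.73) and F11r (-0.56). With the 3 outlying arrays left out, Ocln and Jam2 alone kept this call. At 95 h Ocln was the 1 gene called, where 1.37% of all features were called lower. Between 95 h and 8 d in Flk1+ cells, 4 rose and 1 fell, where 12.8% of all features were called higher and 9.31% lower. Among them were Cd99l2 (1.19, adjusted p = 4.64e-05), Mcam (0.94, adjusted p = 4.48e-05) and Ocln (0.75, adjusted p = 0.0003) upward and the gap junction gene Gja1 (-0.89, adjusted p = 0.0441) downward. In Flk1- cells over the same time 4 rose and 0 fell, where 9.88% of all features were called higher and 7.78% lower. Cd99l2 was at 1.03, Mcam at 0.78 and Ocln at 0.62.

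Emcn encodes endomucin, a sialomucin of capillary and venous endothelium. Its 8 d values were -0.52, -0.27, -0.66 and -0.30 in Flk1+ cells, against -1.11, -1.04, -1.17 and -1.17 in Flk1- cells. The arrays did not overlap, and the 1.61-fold difference (95% interval 1.24 to 2.07) did not pass over all features (limma adjusted p = 0.128). It passed in a fit limited to the 8 arrays of 8 d (adjusted p = 0.00688) and with the 3 outlying 84 h arrays left out (adjusted p = 0.0317), which changes the estimate of the spread and not the difference.

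In time, Emcn was 1.54-fold higher at 8 d than at 95 h in Flk1+ cells (1.19 to 1.99, adjusted p = 0.0149). The Flk1+ arrays at 95 h were -0.92, -0.86, -0.76 and -1.70, with replicate 4 far below the others, and without that replicate the difference was 0.41 (adjusted p = 0.0655) in place of 0.62. After quantile normalization it was 0.31 (adjusted p = 0.221). The Flk1- arrays at 95 h were -0.93, -0.95, -0.75 and -1.03, and the change to 8 d in Flk1- was -0.21 (adjusted p = 0.475), or -0.50 after quantile normalization (adjusted p = 0.0447). At 84 h the Flk1+ arrays were spread from -1.73 to -0.88, around the Flk1- arrays at -1.10 to -0.93. The difference at 84 h was -0.28 with all arrays and -0.62 (adjusted p = 0.0632) with the 3 outlying ones left out.

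Cd34 encodes a sialomucin shared by endothelium and blood progenitors. At 8 d it measured -1.25, -1.003, -1.17 and -1.05 in Flk1+ cells, against -1.85, -1.92, -2.02 and -2.23 in Flk1- cells. The arrays were well apart, and Cd34 was 1.85-fold higher in Flk1+ cells (1.55 to 2.21, limma adjusted p = 0.000487). At 95 h the sorts lay on top of each other, at -2.05, -1.99, -1.91 and -1.60 in Flk1+ cells against -1.62, -1.74, -2.11 and -1.93 in Flk1- cells, with a difference of -0.035 (95% interval -0.29 to 0.22). At 84 h they also overlapped, at -2.11, -2.28, -2.48 and -2.05 in Flk1+ cells against -2.34, -2.31, -2.35 and -2.37 in Flk1- cells.

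Cd34 was 1.70-fold higher at 8 d than at 95 h in Flk1+ cells (1.43 to 2.03, adjusted p = 8.28e-05), while in Flk1- cells the change was -0.15 ± 0.12 (adjusted p = 0.435). These changes differed by 0.92 ± 0.17 (interaction, adjusted p = 0.0137). After quantile normalization none of these 3 statements kept its side of the threshold. The change was then 0.34 in Flk1+ cells (adjusted p = 0.0872) and -0.40 in Flk1- cells (adjusted p = 0.0474), and the interaction was 0.74 (adjusted p = 0.121). Between 84 h and 95 h Cd34 rose in Flk1- cells by 0.49 ± 0.12 (adjusted p = 0.044), a call that held in 6 of 17 alternatives. In Flk1+ cells the corresponding difference was 0.34 ± 0.12 (adjusted p = 0.0524), and its arrays at the 2 times did not overlap. It was 0.41 (adjusted p = 0.117) with the 3 outlying arrays left out.

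Of 6 further genes listed with the sialomucins 4 were measured, and none was called by limma between the sorts at 8 d, with 2 at an unadjusted p under 0.05. Podxl, which encodes podocalyxin, a relative of Cd34, differed by -0.50 ± 0.23 at 8 d (adjusted p = 1) and was lower in Flk1+ cells at 84 h (-0.81 ± 0.23, adjusted p = 0.0277). That call was lost with the 3 outlying arrays left out (-0.19, adjusted p = 0.635). Cd164 was then called higher in Flk1+ cells at 84 h, at 0.54 (adjusted p = 0.0272) in place of -0.045 (adjusted p = 0.911). From 95 h to 8 d in Flk1- cells Podxl rose by 0.74 and Cd164 by 0.68 (adjusted p = 0.0301 and 0.0452), where 9.88% of all features were called higher. In Flk1+ cells 0 of the 4 passed (0 at an unadjusted p under 0.05).

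Eng encodes endoglin, the co-receptor for BMP and TGF-beta ligands. At 8 d it measured -0.96, 0.047, -0.92 and -0.52 in Flk1+ cells, against -1.92, -1.77, -2.08 and -2.15 in Flk1- cells. The sorts did not overlap although the Flk1+ arrays were spread widely, with replicate 2 the highest. Eng was 2.63-fold higher in Flk1+ cells (1.92 to 3.60, limma adjusted p = 0.00261), and its difference ranked 8 among the 17440 features.

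At 84 h Eng measured -1.62, -1.16, -1.79 and -0.68 in Flk1+ cells, against -1.88, -1.85, -1.97 and -1.65 in Flk1- cells. The 2 highest Flk1+ arrays, replicates 2 and 4, are those that stood apart from their group. The difference of 0.53 ± 0.22 (adjusted p = 0.101) was 0.19 (adjusted p = 0.722) without the 3 arrays. At 95 h the sorts overlapped, at -1.64, -1.32, -1.70 and -1.99 in Flk1+ cells against -2.02, -1.52, -1.86 and -1.80 in Flk1- cells.

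Eng was 2.10-fold higher at 8 d than at 95 h in Flk1+ cells (1.53 to 2.88, adjusted p = 0.00112). In Flk1- cells the change was -0.18 ± 0.22 (adjusted p = 0.631). The difference between these changes, 1.25 ± 0.31, missed the threshold (interaction, adjusted p = 0.0814), and it passed with the replicate number within each time as a block (adjusted p = 0.0233) and without the 3 arrays of 84 h (adjusted p = 0.0148).

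Endoglin acts with BMP and TGF-beta receptors and their SMAD proteins, a list of 18 genes of which 14 were measured. At 8 d none was called by limma between the sorts, and 1 had an unadjusted p under 0.05. At 84 h 3 were higher and 1 was lower in Flk1+ cells, with Smad1 at 0.98 (adjusted p = 0.00401), Acvr1, a BMP receptor, at 0.81 (adjusted p = 0.0165), Tgfb1 at 0.53 (adjusted p = 0.0173), and Id2, a BMP target, at -0.93 (adjusted p = 0.029). Of all features 5.3% were called higher and 8.18% lower at 84 h. With the 3 outlying arrays left out 1 was higher and 0 were lower, as Smad1 kept its call (1.41, adjusted p = 0.000664) and Acvr1, Tgfb1 and Id2 did not (adjusted p = 0.102, 0.111 and 0.416). At 95 h Smad1 and Tgfb1 were higher by 1.04 and 0.59 (adjusted p = 0.00521 and 0.022), where 0.659% of all features were called higher. From 95 h to 8 d in Flk1+ cells 2 rose and 2 fell, where 12.8% of all features were called higher and 9.31% lower. Tgfbr3, which encodes betaglycan, the co-receptor most like endoglin, rose by 1.72 (adjusted p = 3.5e-09) and Id2 by 1.59 (adjusted p = 0.000169). Smad1 fell by 1.75 (adjusted p = 1.56e-06) and Tgfb1 by 0.54 (adjusted p = 0.00675). In Flk1- cells 3 rose and 1 fell, where 9.88% of all features were called higher and 7.78% lower. Id2 rose there by 1.56, Tgfbr3 by 1.19 and Bmpr2 by 0.63 (adjusted p = 0.000254, 1.06e-06 and 0.0167), and Smad1 fell by 1.02 (adjusted p = 0.00109). None of the 14 had a called interaction from 95 h to 8 d.

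Ramp2 encodes the partner of the calcitonin receptor-like receptor. The 8 d arrays gave 0.18, 0.032, 0.23 and 0.33 in Flk1+ cells, against -0.37, -0.32, -0.42 and -0.22 in Flk1- cells. The sorts did not overlap, and the 1.44-fold difference (95% interval 1.13 to 1.83) did not pass over all features (limma adjusted p = 0.352). After quantile normalization it was 0.74 on the log2 scale with an adjusted p of 0.00476, and in a fit of the 8 arrays alone the adjusted p was 0.00875.

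Earlier, Ramp2 had lower values in both sorts. At 95 h it measured -0.65, -1.14, -0.51 and -0.79 in Flk1+ cells, against -0.09, -0.81, -0.47 and -0.54 in Flk1- cells. At 84 h it measured -0.84, -1.66, -0.98 and -1.40 in Flk1+ cells, against -0.94, -0.94, -1.09 and -0.74 in Flk1- cells. The 2 lowest arrays at 84 h were Flk1+ replicates 2 and 4, and the difference of -0.30 (adjusted p = 0.221) was 0.077 without the 3 arrays. Between 84 h and 95 h Ramp2 differed by 0.45 in Flk1+ cells, and by 0.14 (adjusted p = 0.679) with those arrays left out. Ramp2 was 1.95-fold higher at 8 d than at 95 h in Flk1+ cells (1.54 to 2.48, adjusted p = 0.000196), and in Flk1- cells the change was 0.14 ± 0.17 (adjusted p = 0.617). The interaction of 0.82 ± 0.23 did not pass (adjusted p = 0.166). It passed after quantile normalization (0.99, adjusted p = 0.0125), with array weights (0.69, adjusted p = 0.0266) and with the 3 outlying arrays left out (adjusted p = 0.031).

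Of 9 listed genes of the adrenomedullin receptor system 5 were measured, and none was called by limma between the sorts at 8 d. Calcrl, the receptor that Ramp2 joins, was the 1 gene of the 5 with an unadjusted p under 0.05 and differed by 0.54 ± 0.13 (adjusted p = 0.078). In Flk1+ cells 3 of the 5 rose between 95 h and 8 d, where 12.8% of all features were called higher. They were the decoy receptor gene Ackr3 by 1.61 (adjusted p = 6.88e-05), Calcrl by 0.91 (adjusted p = 2.75e-05) and the ligand gene Adm by 0.90 (adjusted p = 0.00184). In Flk1- cells 1 of the 5 rose, Ackr3 by 3.42 (adjusted p = 2.37e-09), where 9.88% of all features were called higher. Ackr3 was the 1 gene of the list with a called interaction (-1.81 ± 0.36, adjusted p = 0.019). At 84 h Calcrl and Adm were lower in Flk1+ cells, with differences of -0.71 and -1.09 (adjusted p = 0.00138 and 0.00104) and Ackr3 was higher by 1.26 (adjusted p = 0.00282), and these 3 calls were also made with the 3 outlying arrays left out (adjusted p = 0.000497, 0.019 and 0.0235). With all arrays, 5.3% of all features were called higher and 8.18% lower at 84 h.

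Nos3 encodes endothelial nitric oxide synthase. At 8 d it measured -0.21, -0.16, -0.20 and -0.11 in Flk1+ cells, against -0.29, -0.33, -0.31 and -0.37 in Flk1- cells. The arrays did not overlap, but the difference of 0.16 ± 0.09 was small and did not pass (adjusted p = 1, unadjusted 0.0985). At 95 h it measured -0.24, -0.44, -0.32 and -0.58 in Flk1+ cells, against -0.73, -0.46, -0.46 and -0.59 in Flk1- cells, and the groups overlapped. Flk1+ and Flk1- cells changed by 0.22 and 0.24 between 95 h and 8 d (adjusted p = 0.0808 and 0.0733), with an interaction of -0.013 ± 0.13. Both changes passed with the 3 outlying arrays left out (adjusted p = 0.0336 and 0.0288) and with array weights (adjusted p = 0.0182 and 0.00418). With all arrays weighted equally, no comparison of Nos3 passed the test, and its SD over 24 arrays, 0.15, was smaller than that of all but 6.81% of features.

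Among 17 genes of nitric oxide signalling 11 were measured, and none was called by limma between the sorts at 95 h or 8 d, with 2 and 3 at an unadjusted p under 0.05. At 84 h 0 were higher and 2 were lower in Flk1+ cells, Ddah1, which breaks down an inhibitor of nitric oxide synthases (-0.76, adjusted p = 0.0367), and Nostrin, which encodes a trafficking partner of Nos3's protein (-0.60, adjusted p = 0.0264). Of all features 5.3% were called higher and 8.18% lower at 84 h. In Flk1+ cells 5 of the 11 rose between 95 h and 8 d and 0 fell, where 12.8% of all features were called higher and 9.31% lower. These included Prkg1, a kinase activated by cyclic GMP (1.76, adjusted p = 4.21e-07), Ddah1 (0.77, adjusted p = 0.0207), and Cav1, a caveolar protein that binds endothelial nitric oxide synthase (0.70, adjusted p = 0.00441). In Flk1- cells 4 rose and 0 fell, with Prkg1 at 2.02 and Cav1 at 0.60, where 9.88% of all features were called higher and 7.78% lower.

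**Figure D2:**
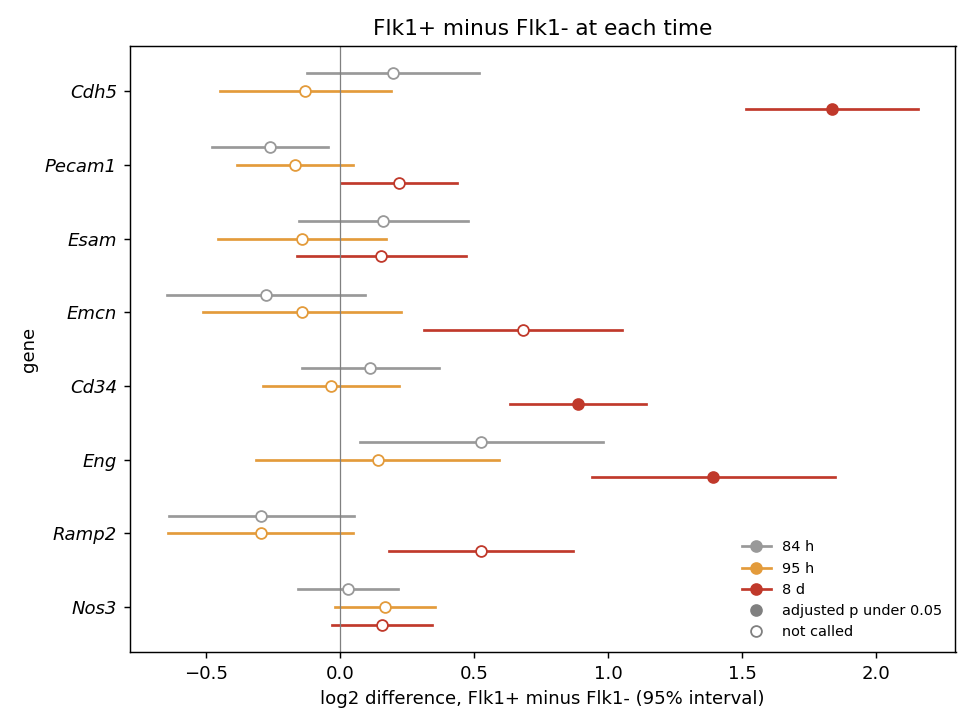
Difference of Flk1+ minus Flk1- on the log2 scale for the 8 genes at 84 h, 95 h and 8 d, with 95% intervals, and filled points where the limma adjusted p was under 0.05. At 8 d all 8 differences lie above 0, from 0.15 for Esam to 1.84 for Cdh5, and those of Cdh5, Cd34 and Eng are filled.

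Counted together, 3 of the 8 genes were higher and 0 were lower in Flk1+ cells at 8 d, where 0.373% of all features were called in either direction and 0.149% were called higher. For 7 of the 8, all but Pecam1, every Flk1+ array was above every Flk1- array, which held for 9.06% of features. The median difference of the 8 genes was 0.60, against 0.0067 over all features, and 18 features in all had a difference over 1. Emcn ranked 75 and Ramp2 194.5 by size of difference, whereas Pecam1, Nos3 and Esam ranked between 1710 and 2791.5.

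**Figure D3:**
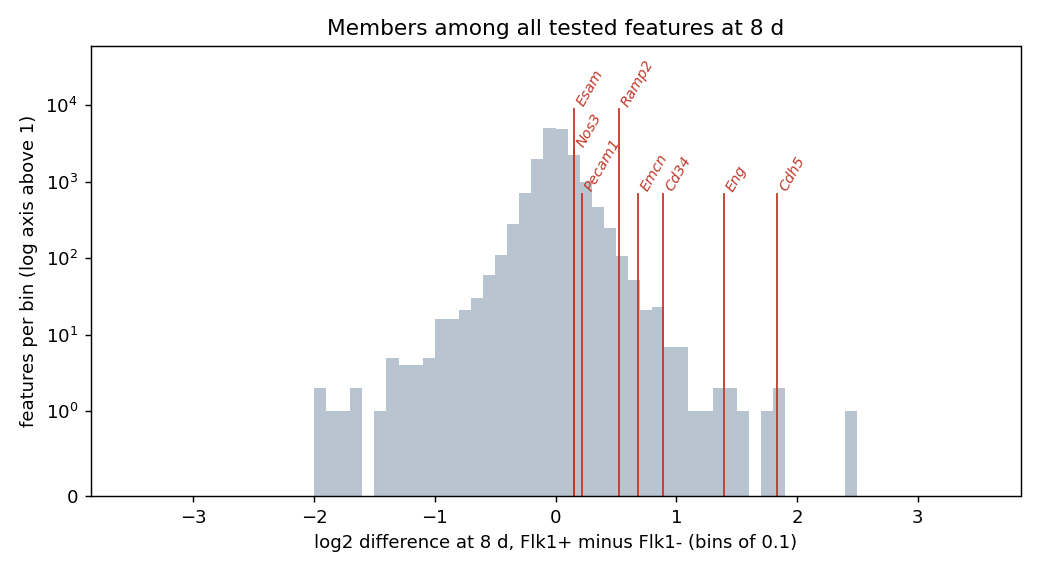
Histogram of the Flk1+ minus Flk1- difference at 8 d over all 17440 features (number of features on a log axis), with the 8 genes marked. Cdh5 at 1.84, Eng at 1.39 and Cd34 at 0.89 lie in the upper tail, and Pecam1, Nos3 and Esam lie near the bulk.

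At 84 h 0 of the 8 genes were called by limma, where 13.5% of features were called (6.74%, and again 0 of the 8, with the 3 outlying arrays left out), and 2 had an unadjusted p under 0.05, Pecam1 (0.0195) and Eng (0.0252). A fit of only the 84 h arrays called 1.99% of features and 0 of the 8 genes. Pecam1 was the 1 gene without overlap, a property of 17.4% of features. At 95 h 0 of the 8 were called and 0 had an unadjusted p under 0.05, where 2.03% of features were called. None of the 8 was without overlap at 95 h, against 4.81% of features, and the differences ran from -0.30 for Ramp2 to 0.17 for Nos3.

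**Figure D4:**
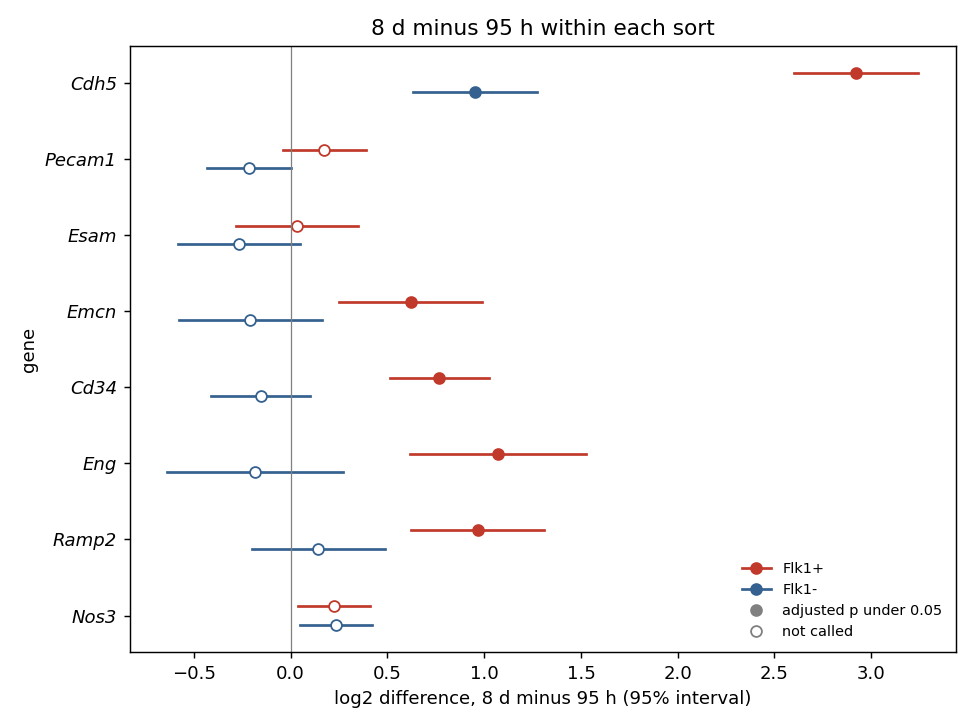
Change from 95 h to 8 d (8 d minus 95 h, log2 scale, 95% intervals) for the 8 genes, with Flk1+ above Flk1- and filled points where the limma adjusted p was under 0.05. In Flk1+ cells Cdh5, Emcn, Cd34, Eng and Ramp2 are filled at 0.62 to 2.92, and in Flk1- cells Cdh5 alone is filled, at 0.95.

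Between 95 h and 8 d 5 of the 8 genes rose in Flk1+ cells, where 22.1% of features were called and 12.8% were called higher. In Flk1- cells 1 of the 8 rose, Cdh5, with 17.7% of features called and 9.88% called higher. The median change of the 8 genes was 0.69 in Flk1+ cells and -0.17 in Flk1- cells, against -0.012 and -0.034 over all features. The change itself differed between the sorts for 2 of the 8, Cdh5 and Cd34, where 0.533% of features had a called interaction and 0.35% a positive one. Array SDs over all probes were smaller at 8 d (0.56 to 0.63) than at 95 h (0.71 to 0.78), and setting medians to 0 left this unequal. After quantile normalization, which equalizes this scale, 3 of the 8 were called higher in Flk1+ cells and 0 lower. In Flk1- cells 1 was then higher and 4 were lower. The part of array scale in these changes was not tested. Markers of other cells were called over the same time in Flk1+ cells, and their part in the rise of the 5 genes was not tested. Of 6 mural and smooth muscle markers 2 rose and 1 fell, with Acta2 at 3.69 (adjusted p = 8.69e-16) and Pdgfrb at 2.49 (adjusted p = 3.97e-10). Of 7 blood markers 4 rose and 0 fell, the largest being Vav1 at 1.29 (adjusted p = 0.00593) and Ptprc at 1.05 (adjusted p = 0.0469). Of 7 cardiac markers 1 rose, of 5 epithelial and pluripotency markers 2 fell, Epcam by 1.17 and Nanog by 0.66 (adjusted p = 0.00562 and 0.00328), and of 5 endoderm markers 1 rose and 1 fell. In Flk1- cells 2 blood, 2 mural, 2 cardiac and 1 endoderm markers rose, while 1 mural, 1 cardiac, 5 epithelial and pluripotency and 2 endoderm markers fell. Over all features 9.31% were called lower in Flk1+ cells and 7.78% in Flk1- cells. These comparisons share the 8 d and 95 h arrays with those between the sorts.

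Between 84 h and 95 h 0 of the 8 genes passed in Flk1+ cells, where 19.8% of features were called by limma, and 2 had an unadjusted p under 0.05, Cd34 and Ramp2. With the 3 outlying arrays left out, 5.45% of features and 0 of the 8 genes were called. In a fit of only the arrays compared, 0% of features and 0 of the 8 genes were called, so the share of 19.8% rests on the spread shared with the other groups. In Flk1- cells 1 of the 8 rose, Cd34, with 1.64% of features called and 1.06% called higher. The difference between the sorts changed from 84 h to 95 h for 0 of the 8 by limma, against 0.00573% of features, with 0 of the 8 at an unadjusted p under 0.05.

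The 8 genes did not share 1 pattern. Over 24 arrays the SD was 1.16 for Cdh5, larger than that of 99.5% of features, between 0.36 and 0.56 for Emcn, Cd34, Ramp2 and Eng, and between 0.15 and 0.23 for Nos3, Pecam1 and Esam, against a median of 0.30 over all features. The range of the group means was 3.24 for Cdh5 and 0.37 for Pecam1, against a median of 0.54. Flk1+ at 8 d was the highest group for 7 of the 8, all but Esam, and it was clear of the next group without overlap for Cdh5, Emcn, Cd34 and Ramp2.

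Pearson's r over the 24 arrays, which share group structure and reference, was highest between Cdh5 and Cd34 (0.86) and between Cdh5 and Ramp2 (0.82). Against Pecam1 and Esam, Cdh5 had r of 0.36 and 0.16. With Kdr, the gene of the sort, r was 0.50 for Eng, 0.44 for Cd34 and 0.36 for Cdh5, and -0.22 for Pecam1.

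Among all named genes, those whose array values were most like Cdh5 were Ctla2b (r = 0.97), Fermt3 (0.95), which encodes kindlin-3 of blood cells and platelets, and Elk3 (0.93), an ETS factor. For Cd34 they were Igf1 (0.88), Cdh5 (0.86) and Dll4 (0.84), a Notch ligand of arterial endothelium. For Emcn they were F5 (0.86), Lingo1 (0.83) and Mfng (0.82), for Eng F10 (0.81), Csnk1g2 (0.80) and Cnrip1 (0.79), and for Ramp2 Kmt2e (0.91), Flrt3 (0.91) and S100a13 (0.90). For Nos3 they were Clec14a (0.87), an endothelial surface lectin, Lhx8 (0.80) and Arhgap31 (0.79). For the low-spread genes they were Rnf182, Lgi2 and Slc9b2 (0.78, 0.76 and 0.75, Pecam1) and Spi1, Mcm3ap and Nos1 (0.89, 0.85 and 0.85, Esam). Closest to the mean of the 8 standardised genes were Mfng (0.91), Pcdh17 (0.88), Alox5ap (0.88), Igf1 (0.87) and Exoc3l4 (0.87). These likenesses describe the same 24 arrays and were not tested.

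Of 20 other endothelial receptor and identity genes 13 were measured. At 8 d, where 0.149% of all features were called higher, 2 of the 13 were higher in Flk1+ cells. These were Dll4 (0.67 ± 0.13, limma adjusted p = 0.0211) and Kdr, which encodes the protein used for the sort, so that its difference at each time follows from the sort. Between 95 h and 8 d 7 rose and 0 fell in Flk1+ cells, where 12.8% of all features were called higher and 9.31% lower. These included the endothelin receptor gene Ednrb (2.75, adjusted p = 3.14e-08), the protein C receptor gene Procr (1.74, adjusted p = 0.000145) and Nrp1, a VEGF co-receptor (1.69, adjusted p = 1.61e-10). In Flk1- cells 6 rose and 1 fell, where 9.88% of all features were called higher and 7.78% lower. Ednrb was at 2.65, Nrp1 at 2.45 and Flt1, a VEGF receptor gene, at -0.64 (adjusted p = 0.00639). Kdr, Aplnr and Nrp1 were higher in Flk1+ cells at 84 h and 95 h, while Stab1 was lower at 84 h (-0.27, adjusted p = 0.0495) and Flt1 was lower at 95 h (-0.66, adjusted p = 0.0281). The 84 h calls of these 4 genes were also made with the 3 outlying arrays left out. With all arrays, 5.3% of all features were called higher and 8.18% lower at 84 h, and 0.659% and 1.37% at 95 h.

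Of 25 listed transcription factors of endothelium 13 were measured, and 1 was higher in Flk1+ cells at 8 d, Elk3 (0.63 ± 0.11, limma adjusted p = 0.01). At that time 0.149% of all features were called higher. Klf2, induced by blood flow in endothelium, rose by 2.06 between 95 h and 8 d in Flk1+ cells (adjusted p = 1.11e-07), and its interaction was 2.53 ± 0.28 (adjusted p = 3.78e-05). At 84 h 1 was higher and 4 were lower in Flk1+ cells, and at 95 h 1 was higher and 3 were lower. Over all features 5.3% were called higher and 8.18% lower at 84 h, and 0.659% and 1.37% at 95 h. Hey1 was higher at both times (0.29 and 0.37, adjusted p = 0.0491 and 0.0429). Lower at both were Klf2 (-1.97 and -1.71, adjusted p = 1.29e-06 and 1.71e-05), Foxo1 (-1.11 and -0.87, adjusted p = 7.49e-05 and 0.00231) and Sox17 (-0.80 and -1.76, adjusted p = 0.0204 and 3.24e-05). Sox17 is also among the endoderm markers used below, so it enters both lists. With the 3 outlying arrays left out 1 was higher and 2 were lower at 84 h, and Hey1 and Sox17 did not pass (adjusted p = 0.0807 and 0.0731).

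Of 12 listed endothelial markers 4 were measured on single-gene probes, Cdh5, Pecam1, Emcn and Esam, all among the 8 genes. Their mean per array ran from -0.50 to -0.18 in Flk1+ cells at 8 d, against -1.08 to -0.97 in Flk1- cells. Of the 4, limma called 1 between the sorts at 8 d, Cdh5 at 1.84. Emcn at 0.68, Pecam1 at 0.22 and Esam at 0.15 were not called. Markers of other cells moved with the sort as well, and their part in the results for the 8 genes was not tested. Of 5 measured endoderm markers 3 were lower in Flk1+ cells at 8 d, where 0.224% of all features were called lower. The mean of the 5 ran from -1.95 to -1.72 in Flk1+ cells against -0.98 to -0.82 in Flk1- cells. The mean of 5 epithelial and pluripotency markers ran from -1.08 to -0.91 in Flk1+ cells at 8 d against -0.40 to -0.19 in Flk1- cells, with 0 called by limma and 3 at an unadjusted p under 0.05, and all 5 were lower in Flk1+ cells at 84 h, or 4 with the 3 outlying arrays left out. With all arrays, 8.18% of all features were called lower at 84 h. The mean of 7 blood markers at 8 d ran from -0.077 to 0.019 in Flk1+ cells against 0.080 to 0.11 in Flk1- cells, and 0 of the 7 blood, 0 of the 6 mural and 0 of the 7 cardiac markers were called by limma, with 1, 0 and 3 at an unadjusted p under 0.05.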

How the data were processed

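RNA of 24 sorted cell samples was measured against a common whole-pup reference on two-colour Agilent mouse development arrays. The deposited values, handled here as log2 ratios of Cy5 (sample) over Cy3 (reference) per the labels' dyes, ran from -6.42 to 5.33 with array means of 0. Their log base, direction, background correction and normalization are not given in the sources used here. Direction was checked: 10 of 10 stem cell genes lay above 0 and 6 of 7 pup tissue genes below it. Another log base would scale every difference by 1 factor. Scanner signals and detection calls were not used here, so a dim probe cannot be told from a measured one. Precision is limited by the number of arrays, 4 in each group.

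Of 20280 probes, 11813 had 1 gene in the platform annotation, 559 several and 7908 none. Array medians were set to 0, probes of 1 gene were averaged, and 17440 features entered 1 fit with a mean per group (R 4.3.3, limma 3.58.1, lmFit and eBayes; 18 residual and 3.41 prior degrees of freedom), tested on simulated data. Further tools were data.table (version 1.17.8) and, for figures, Python 3.11.15 with matplotlib 3.10.9. There were 9 comparisons: the sorts at each time, consecutive times within a sort, and the interactions. Benjamini-Hochberg adjustment ran over all features.

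All 8 genes were named in every comparison, Kdr as a check, up to 3 called genes in each direction per list, the 3 genes most like each gene and the 5 most like their mean. The members and lists were chosen with earlier results of these data known. Same-numbered Flk1+ and Flk1- arrays deviated together at 95 h (r from 0.11 to 0.42) and 8 d (0.15 to 0.44). This did not hold in every pair at 84 h (-0.13 to 0.53). The main fit left such pairing out, and the replicate number entered as a block only in an alternative, at every time. With that block 0.797% of features and 3 of the 8 genes were called between the sorts at 8 d, against 0.373% and 3 in the main fit. Alternatives were values as deposited, quantile normalization, array weights, robust eBayes, only the arrays compared, other probe rules, the replicate number as a block and leaving out each replicate.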

Additional observations from a re-analysis of the deposited data

Results flagged for a closer look

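Of 48 sets of 4 arrays (8 genes in 6 groups), 3 held an array far from the others, where chance gives about 1 in 20. For Emcn, replicate 4 of Flk1+ at 95 h was at -1.7, with the nearest array of its group at -0.92, and replicate 2 of Flk1- at 84 h was at -0.93, with the nearest at -1.08. For Esam, replicate 1 of Flk1+ at 8 d was at -0.58, with the nearest at -0.50 in a group of very small spread.

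The change from 95 h to 8 d differed between Flk1+ and Flk1- cells for Cdh5 by 1.97 and for Cd34 by 0.92 on the log2 scale (limma interaction, adjusted p = 3.78e-05 and 0.0137). That of Cd34 was 0.74 after quantile normalization and did not pass (adjusted p = 0.121). Cdh5 was higher at 8 d than at 95 h in both sorts, whereas Cd34 passed in Flk1+ cells and had a change of -0.15 in Flk1- cells.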

How the results depend on the processing

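At 8 d the calls of Cdh5 (1.73 to 2.02), Eng (1.18 to 1.52) and Cd34 (0.79 to 0.94) held in all 17 alternatives, as did the rise of Cdh5, Eng and Ramp2 from 95 h to 8 d in Flk1+ cells. Over all genes and comparisons, 1251 alternative values kept direction and side of the threshold, 16 lost a call, 39 gained one and 46 changed sign, none of these called. The cause was not tested. The exclusion of 3 arrays was chosen after seeing the data.

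Counts of called genes moved as follows. Between the sorts at 8 d, 7 of 8 were called with array weights and 5 in a fit of only the arrays compared, in place of 3, while the share of all features called was 13.4% and 5.46% in place of 0.373%. At 84 h, in place of 0, 2 were called with array weights (both lower, Pecam1 and Emcn) and 1 after quantile normalization (Cd34, higher). With the replicate number as a block 1 was called (Eng, adjusted p = 0.0341), and 0 to 1 with a replicate left out. Of all features 20.8%, 7.48% and 25.1% were called with array weights, quantile normalization and the block, in place of 13.5%. From 95 h to 8 d, 3 were called in Flk1+ after quantile normalization in place of 5, since Cd34 was then at 0.34 and Emcn at 0.31 (adjusted p = 0.0872 and 0.221). Of all features 28.7% were then called in place of 22.1%. In Flk1-, in place of 1, 3 were called with array weights (2 higher, Esam lower), 5 after quantile normalization (Cdh5 higher, and Cd34, Emcn, Esam and Pecam1 lower) and 2 without the 3 arrays (both higher), with 38.4%, 26.3% and 29.2% of features called in place of 17.7%. From 84 h to 95 h in Flk1+, in place of 0, 1 was called with the replicate block (20.8% of features called in place of 19.8%) and 0 to 2 with a replicate left out (2 without Flk1+ 84 h replicate 1). In Flk1-, in place of 1, 3 were called with array weights, 0 with values as deposited, only the arrays compared, quantile normalization or robust eBayes, and 0 to 1 with a replicate left out. Of all features 12.4% were called with array weights in place of 1.64%, and 1.5%, 0.401%, 2.1% and 1.44% in the settings named next. For the interaction from 95 h to 8 d, 4 were called with array weights and 4 without the 3 arrays, in place of 2. Of all features 1.65% and 1.8% were then called in place of 0.533%. The replicate block changed no other call except those of Ramp2 from 84 h to 95 h in Flk1+ (adjusted p = 0.0372) and Eng in the interaction from 95 h to 8 d (0.0233).

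Emcn from 95 h to 8 d in Flk1+ also lost its call without Flk1+ 8 d replicate 2 (adjusted p = 0.0517). Signs changed for these uncalled values. Under quantile normalization, the change from 84 h to 95 h in Flk1+ was -0.058 for Cd34, -0.35 for Cdh5 and -0.042 for Esam, and in Flk1- -0.019 for Eng. The change from 95 h to 8 d was -0.28 for Esam in Flk1+ (-0.012 as deposited) and -0.030 for Ramp2 in Flk1-. The sort difference was 0.049 for Cd34 at 95 h, and 0.081 for Emcn and 0.071 for Ramp2 at 84 h. The interaction was -0.17 for Emcn and -0.042 for Pecam1 from 84 h to 95 h and 0.011 for Nos3 from 95 h to 8 d. With array weights, Cd34 was at 0.095 at 95 h and 0.080 in the earlier interaction, and at 84 h Esam was at -0.068, Nos3 at -0.091 and Ramp2 at 0.013. Without the 3 arrays, Esam was at -0.11, Nos3 at -0.12 and Ramp2 at 0.077 at 84 h, and Eng at 0.046 from 84 h to 95 h in Flk1+.

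With 1 replicate left out, values ran from -0.13 to 0.042 for Cd34, -0.24 to 0.069 for Emcn and -0.26 to 0.011 for Esam between the sorts at 95 h, and from -0.014 to 0.084 for Nos3 at 84 h. They ran from -0.055 to 0.11 for Eng from 84 h to 95 h in Flk1-, and in Flk1+ from -0.026 to 0.18 for Esam from 84 h to 95 h and -0.061 to 0.15 from 95 h to 8 d. The earlier interaction ran from -0.0026 to 0.35 for Emcn and -0.15 to 0.13 for Ramp2, and the later one from -0.074 to 0.043 for Nos3.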

Other observations

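The 3 probes that list Ramp2 together with Malat1 differed between Flk1+ and Flk1- cells at 8 d by 0.11, 0.59 and -0.17 (limma adjusted p = 1 for each), against 0.53 for the probe that lists Ramp2 only. At 84 h they differed by -1.63, -0.54 and -0.49 (adjusted p = 0.029, 0.395 and 0.0479), and which of the 2 genes each measures is not settled by the annotation.

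Several genes picked for likeness to the 8 also had called differences between the sorts at 8 d, values that describe the same arrays. Ctla2b was higher in Flk1+ cells by 2.49, Fermt3 by 1.76, Alox5ap, which encodes a partner of lipoxygenase in leukotriene synthesis, by 1.03 and Mfng, a modifier of Notch receptors, by 0.82 (limma adjusted p = 6.92e-05, 0.000155, 0.00509 and 0.0157). Flrt3, like Ramp2 over the arrays, was at 2.01 in Flk1+ and 2.02 in Flk1- cells at 8 d.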
